A study of Mus musculus with 12 samples.

Results

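The genes of the cornified envelope were followed through the stages of a chemically induced tongue cancer in mice. They were taken from the array by symbol: every small proline-rich protein gene (symbols Sprr and a number), every late cornified envelope gene (Lce and a number), and 20 further genes of envelope precursors, plakins and transglutaminases. All 20 were on the array, and 55 of the 24477 genes measured were members: 14 Sprr, 21 Lce, 7 genes of the S100 fused-type family, 8 other envelope precursors, 2 plakins and 3 transglutaminases. The rule itself uses no expression value. The samples were tongue epithelium from male CBA mice, cut out by laser microdissection, with 1 mouse and 1 array per sample and 3 samples in each of 4 groups. The hyperplasia, dysplasia and tumor groups came from mice that drank water with the carcinogen 4-nitroquinoline-1-oxide (4-NQO) at 100 µg/mL for 8 weeks, and the normal mucosa came from untreated mice. The mice were 20, 16 and 20 weeks old for hyperplasia 1 to 3, 16, 24 and 16 weeks for dysplasia, 20, 16 and 24 weeks for tumor, and 24, 12 and 20 weeks for normal. All lesions came from treated mice, so that carcinogen exposure and lesion stage cannot be told apart in the comparisons with normal mucosa.

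The cornified envelope is the protein shell that replaces the plasma membrane of a keratinocyte at the end of its differentiation. Plakins and involucrin form the first layer under the membrane, then loricrin, SPRR, LCE and the S100 fused-type proteins are added, and transglutaminases join them by covalent bonds. Most of the genes lie side by side in the epidermal differentiation complex, and in RefSeq 46 of the 55 members were on chromosome 3. The dorsal tongue cornifies, and SPRR proteins are also known as stress-responsive proteins of moist epithelia.

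RefSeq promoters (GRCm38.p6) were available for 48 of the 55 members, and 7 are shown because the results below turn on these genes. Each is the 250 bases before the annotated start, written in the direction of transcription. Sprr2d and Sprr2i were called higher in dysplasia and tumors, Sprr2k belongs to the same family and was not called, and Lce1d, Lce1c and the fused-type genes Crnn and Flg were called lower in both. Capitals mark matches, on either strand, to TGAGTCA (the consensus of the AP-1 factors, which pair Fos and Jun proteins), to its 1-base variant TGAATCA, to the octamer ATTTGCAT and to the TATA box letters TATAAA. No matches overlap in the windows shown. The windows were Sprr2d chr3:92338890-92339139 (plus strand), Sprr2i chr3:92407741-92407990 (plus strand), Sprr2k chr3:92432332-92432581 (plus strand), Lce1d chr3:92687211-92687460 (minus strand), Lce1c chr3:92678997-92679246 (plus strand), Crnn chr3:93144539-93144788 (plus strand) and Flg chr3:93273296-93273545 (plus strand).
Sprr2d: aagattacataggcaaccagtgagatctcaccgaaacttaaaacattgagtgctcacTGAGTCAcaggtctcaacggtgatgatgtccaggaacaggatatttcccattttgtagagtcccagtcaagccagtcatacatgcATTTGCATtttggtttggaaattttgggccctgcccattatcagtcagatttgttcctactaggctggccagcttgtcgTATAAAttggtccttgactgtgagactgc
Sprr2i: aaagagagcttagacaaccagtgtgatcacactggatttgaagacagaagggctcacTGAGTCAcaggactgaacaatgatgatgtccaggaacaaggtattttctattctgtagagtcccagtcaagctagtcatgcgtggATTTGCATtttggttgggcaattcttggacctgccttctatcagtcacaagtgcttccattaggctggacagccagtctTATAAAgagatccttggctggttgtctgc
Sprr2k: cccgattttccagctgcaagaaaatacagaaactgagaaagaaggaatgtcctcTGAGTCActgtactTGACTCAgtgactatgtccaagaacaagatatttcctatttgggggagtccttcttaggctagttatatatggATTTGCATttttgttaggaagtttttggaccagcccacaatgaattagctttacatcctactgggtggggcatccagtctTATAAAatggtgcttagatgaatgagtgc
Lce1d: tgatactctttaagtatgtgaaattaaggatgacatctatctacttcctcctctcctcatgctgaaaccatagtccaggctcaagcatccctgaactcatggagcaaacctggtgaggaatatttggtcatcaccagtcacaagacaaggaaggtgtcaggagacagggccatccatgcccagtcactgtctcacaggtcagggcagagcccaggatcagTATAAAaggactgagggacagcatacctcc
Lce1c: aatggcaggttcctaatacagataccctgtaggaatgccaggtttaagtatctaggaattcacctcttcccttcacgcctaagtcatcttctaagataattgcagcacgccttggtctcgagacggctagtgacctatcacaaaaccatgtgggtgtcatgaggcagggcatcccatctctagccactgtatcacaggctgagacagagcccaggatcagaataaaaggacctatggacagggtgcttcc
Crnn: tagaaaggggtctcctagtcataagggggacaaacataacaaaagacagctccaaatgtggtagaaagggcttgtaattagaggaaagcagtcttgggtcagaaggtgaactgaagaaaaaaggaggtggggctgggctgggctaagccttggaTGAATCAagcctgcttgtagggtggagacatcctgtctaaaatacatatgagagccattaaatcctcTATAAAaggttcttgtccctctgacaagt
Flg: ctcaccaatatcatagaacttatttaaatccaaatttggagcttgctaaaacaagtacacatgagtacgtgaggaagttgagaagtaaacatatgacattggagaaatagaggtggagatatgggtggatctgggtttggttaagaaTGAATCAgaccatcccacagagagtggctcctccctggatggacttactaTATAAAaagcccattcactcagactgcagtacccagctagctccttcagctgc

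The letters were distributed by family. TGAGTCA was in 7 of the 8 Sprr2 promoters, in 0 of 20 Lce promoters and in 0 of 7 fused-type promoters, and 4.46% of all 32851 RefSeq promoters held it. It was also in the promoters of Sprr1a, Lor, Ivl and Krtdap. ATTTGCAT was in 7 of 8 Sprr2 promoters and 0 of 20 Lce promoters, against 1.6% of all promoters, and TATAAA was in 7 of 8 Sprr2 and 4 of 20 Lce promoters, against 12.4% of all. TGAATCA was in 5 of 7 fused-type promoters and 0 of 20 Lce promoters, against 2.43% of all. In the Sprr2 promoters that held them, the letters stood at nearly the same distance from the start, with TGAGTCA first 182 to 198 bases before it, ATTTGCAT 108 to 112 bases and TATAAA 29 bases. The Sprr2 promoters resemble one another to differing degrees, with a median identity of 64.8% over 28 pairs (48% to 89.3%). The median was 63.6% over 78 Lce1 pairs (50.5% to 85.6%) and 58.6% over 15 Lce3 pairs (55.1% to 83.7%). A letter string that is shared, or absent, within a family is therefore not an independent event in each gene. The Sprr2d promoter was 77.5% identical to that of Sprr2i and 67% identical to that of Sprr2k. A match describes the letters only and is no evidence of binding.

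Values below are log2 expression as deposited, and a difference of 1 is a 2-fold change. The arrays measure RNA of all cells in the dissected tissue, so that fewer cornifying cells and less RNA per cell cannot be told apart. Members of the Sprr2 and Lce families are so alike in sequence that a probe may pick up more than 1 of them, and levels are compared between samples for 1 gene, not between genes. Before the results, dysplasia 1 has to be set apart from its group. It lay above both other dysplasia samples for 46 of the 55 members, where it did so for 37.7% of all genes, and for 20 of 21 Lce and 7 of 7 fused-type genes. The median gap to the mean of dysplasia 2 and 3 was 1.68 over the members and 0.02 over all genes. Its level was at or above the lowest hyperplasia sample for 17 of 21 Lce genes, and dysplasia 2 and 3 were both below every hyperplasia sample for 20 of 21. It was among the 4 samples of lowest RNA integrity number (RIN), with normal 1, normal 3 and hyperplasia 2. The mean of 13 leukocyte markers was 6.88 in dysplasia 1 and 5.77 to 6.37 in the other 11 samples, and the part of either in its envelope values was not tested.

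**Figure D1:**
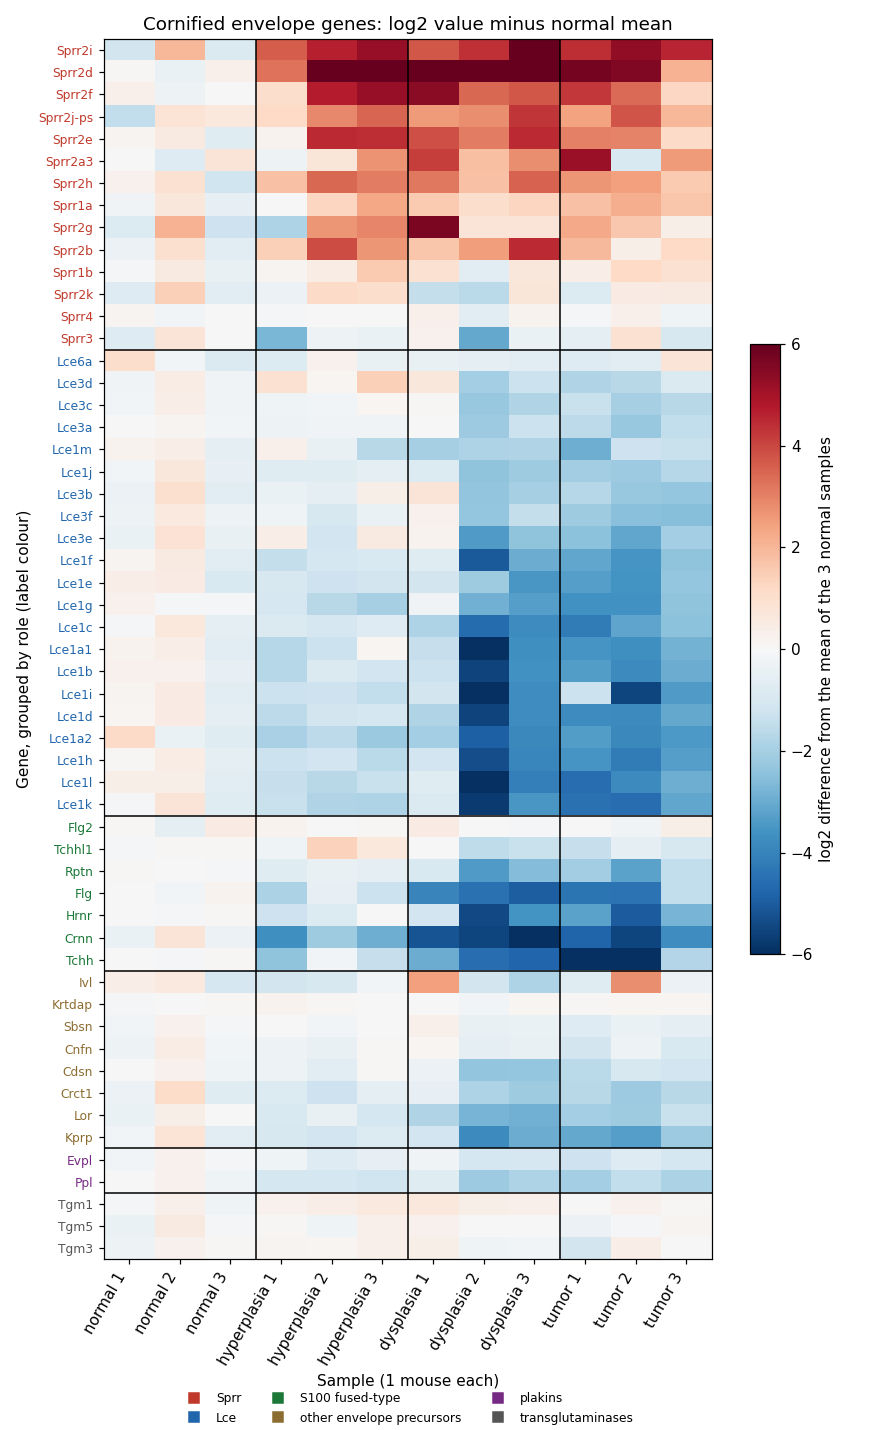
Log2 value of each of the 55 genes (rows, grouped by role, largest tumor minus normal difference at the top of each role) in each of the 12 samples (columns), minus the mean of the 3 normal samples. Red is above and blue below that mean, and the colours end at 6 log2 units. Most Sprr2 rows are red from hyperplasia on, most Lce and fused-type rows are blue in dysplasia 2 and 3 and in the tumors, and the dysplasia 1 column is paler than dysplasia 2 and 3 in most Lce rows.

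Tumors differed from normal mucosa in both directions among the envelope genes, and the direction followed the family. Limma, which fits a linear model to every gene and shares information on the spread between genes, called 2 members higher, both Sprr2 genes, and 17 lower, of which 10 were Lce genes, 4 fused-type genes, 2 other precursors and 1 a plakin. Of all genes, 0.744% were called higher and 1.23% lower in tumors. The median difference was -1.67 over the 55 members, 2.33 over the 10 Sprr2 genes, -3.07 over the 21 Lce genes and -3.44 over the 7 fused-type genes, against -0.05 over all genes. By the size rule of the study, a difference over 1, 10 members were higher and 31 lower, where 2.4% and 3.09% of all genes were. The tumor and normal samples did not overlap for 41 members, 7 higher and 34 lower, against 10.3% and 13% of all genes. At an unadjusted p under 0.05, 7 members were higher and 34 lower, against 7.44% and 9.5% of all genes.

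Sprr2i and Sprr2d encode small proline-rich proteins, short precursors that bridge other envelope proteins. Sprr2i was at 10.12, 11.01 and 10.26 in the tumors, against 4.598, 7.68 and 4.82 in normal mucosa. All tumors were above all normal samples, and normal 2 was the highest of the normals. The difference was 4.76 (standard error 0.80, 27.1-fold, adjusted p = 0.0129 by limma). Sprr2d was at 10.19, 10.0015 and 6.54 in the tumors, against 4.52, 4.05 and 4.73 in normal mucosa. Tumor 3 was the lowest tumor and still above every normal sample, and the difference was 4.48 (standard error 1.03, 22.3-fold, adjusted p = 0.0476). The normal values of Sprr2d lie not far above the 5th percentile of their arrays, 3.07 to 3.38, so that the fold depends on the background. The other Sprr2 genes had differences from 0.07 to 2.96 and none was called. Sprr2h, one of them, was at 9.44, 9.23 and 8.36 in tumors and at 7.04, 7.71 and 5.58 in normal mucosa, without overlap (difference 2.23, adjusted p = 0.0833). Sprr2k had the lowest difference of the family, 0.07 (adjusted p = 0.973), with 5.91, 7.197 and 7.23 in tumors and 5.93, 8.13 and 6.05 in normal mucosa.

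The other Sprr genes belong to the same gene cluster but are not part of the Sprr2 group. Sprr1a, a precursor known to be induced in stressed and wounded epithelium, was at 12.69, 13.11 and 12.56 in tumors and at 10.72, 11.61 and 10.41 in normal mucosa. The groups did not overlap, but the difference of 1.87 was not called (standard error 0.47, adjusted p = 0.0674). Sprr1b had 11.60, 12.38 and 12.13 in tumors and 11.06, 11.75 and 10.77 in normal mucosa (difference 0.84, adjusted p = 0.363), and these groups overlapped. Sprr3, known from esophagus and other moist epithelia, was at 9.70, 11.15 and 9.26 in tumors and at 9.49, 11.03 and 10.21 in normal mucosa (difference -0.20, adjusted p = 0.935). Sprr4 had a difference of -0.01.

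The S100 fused-type family encodes large proteins with an S100 domain at one end and long repeats, which bind keratin filaments and enter the envelope. Crnn, which encodes cornulin, fell in the tumors. Crnn was at 5.96, 5.27 and 7.04 in tumors, against 10.38, 11.55 and 10.42 in normal mucosa. Every tumor was more than 3 log2 units below every normal sample, and the difference was -4.70 (standard error 0.50, 25.9-fold lower, adjusted p = 0.0018). Tchh, which encodes trichohyalin, a protein of hair follicle and filiform papillae, was at 5.42, 5.42 and 10.05 in tumors and at 11.82, 11.71 and 11.88 in normal mucosa (difference -4.84, standard error 1.02, adjusted p = 0.0327). Tumor 3 lay much closer to the normal samples than tumors 1 and 2 did. Flg, which encodes profilaggrin, the source of filaggrin that bundles keratin, was at 5.65, 5.60 and 8.57 in tumors and at 10.01, 9.88 and 10.24 in normal mucosa (difference -3.44, standard error 0.64, adjusted p = 0.0209). Hrnr, which encodes hornerin, was at 7.89, 6.11 and 8.32 in tumors and at 11.10, 11.03 and 11.20 in normal mucosa (difference -3.67, standard error 0.85, adjusted p = 0.0484). Tumor 3 was again the highest tumor in both. Rptn, which encodes repetin, had no overlap between the groups but was not called (difference -2.26, adjusted p = 0.0523), nor was Tchhl1 (difference -0.97, adjusted p = 0.286). Flg2, the neighbour of Flg, was at 4.64, 4.47 and 5.04 in tumors and at 4.73, 4.14 and 5.16 in normal mucosa (difference 0.04, adjusted p = 0.96).

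Late cornified envelope genes encode short cysteine- and glycine-rich precursors that are added late, and 20 of 21 had no overlap between tumor and normal samples. The exception was Lce6a, at 4.07, 4.24 and 5.61 in tumors and 5.90, 4.70 and 3.99 in normal mucosa. Lce6a was below the array median, 6.16 to 6.35, in all 12 samples, which leaves it little range for a fall. Of the 14 Lce1 genes, 9 were called lower. Lce1d was at 8.35, 8.29 and 9.07 in tumors, against 12.24, 12.60 and 11.55 in normal mucosa (difference -3.56, standard error 0.69, 11.8-fold lower, adjusted p = 0.0238). Lce1c was at 8.21, 9.23 and 9.96 in tumors and at 12.30, 13.02 and 11.88 in normal mucosa (difference -3.27, adjusted p = 0.0202). The tumors lay 1.92 or more below the lowest normal sample for Lce1c and tumor 3 was the nearest to the normals in both genes. Lce1k had the largest Lce difference, -4.06 (adjusted p = 0.041), with 6.34, 6.23 and 7.67 in tumors and 10.76, 11.56 and 10.09 in normal mucosa. Lce1h was at 7.88, 7.24 and 8.14 in tumors and at 11.51, 11.90 and 10.89 in normal mucosa (difference -3.68, adjusted p = 0.0287). Lce1a2 was at 7.07, 6.58 and 6.98 in tumors and at 11.58, 10.03 and 9.70 in normal mucosa (difference -3.56, adjusted p = 0.015). In each of these genes the groups were separate. Lce1b, Lce1g and Lce1e had differences of -3.39, -3.22 and -3.07 (adjusted p = 0.0427, 0.0269 and 0.0163), and Lce1j had -1.99. The 5 Lce1 genes that were not called, Lce1l, Lce1i, Lce1a1, Lce1f and Lce1m, had differences from -3.77 to -1.84, also without overlap. The 6 Lce3 genes had smaller differences, -2.56 to -1.45, and Lce3f was the one called (difference -2.40, adjusted p = 0.0327), with tumor values of 3.55 to 4.00 that lie close to the 5th percentile of the arrays, about 3.02 to 3.04.

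Of the 13 other precursors, plakins and transglutaminases, 3 were called. Lor, which encodes loricrin, the main protein of the mature envelope in skin, was at 8.68, 8.60 and 9.40 in tumors and at 10.33, 11.09 and 10.77 in normal mucosa (difference -1.84, standard error 0.33, adjusted p = 0.0168). Kprp, a keratinocyte proline-rich protein gene, was at 8.65, 8.44 and 9.54 in tumors and at 11.54, 12.52 and 11.11 in normal mucosa (difference -2.85, adjusted p = 0.0264). Ppl, which encodes periplakin, a plakin that links the envelope to filaments, was at 8.99, 9.54 and 9.11 in tumors and at 11.01, 11.29 and 10.76 in normal mucosa (difference -1.81, standard error 0.32, adjusted p = 0.0157). In these 3 genes the tumors lay below every normal sample. Evpl, which encodes envoplakin, the partner of periplakin, had 7.96, 8.43 and 8.16 in tumors and 9.04, 9.47 and 9.10 in normal mucosa, without overlap but not called (difference -1.02, adjusted p = 0.0636). Ivl, which encodes involucrin, the scaffold precursor laid down first, was at 6.49, 10.02 and 6.86 in tumors and at 7.63, 7.78 and 6.22 in normal mucosa (difference 0.58, standard error 1.06, adjusted p = 0.829), with tumor 2 about 3 log2 units above the other tumors. Krtdap, a secreted keratinocyte differentiation-associated protein gene, stayed between 12.84 and 13.18 in all 12 samples (difference 0.09, standard error 0.15, adjusted p = 0.81). Crct1 (-1.83, adjusted p = 0.0742), Cdsn, which encodes the desmosomal protein corneodesmosin (-1.24, adjusted p = 0.181), Cnfn (-0.78, adjusted p = 0.186) and Sbsn (-0.56, adjusted p = 0.22) were not called, and their tumor samples lay below every normal sample. The 3 transglutaminase genes were not called. Tgm1, the membrane-bound transglutaminase of keratinocytes, was at 9.50, 9.79 and 9.61 in tumors and at 9.45, 9.83 and 9.29 in normal mucosa (difference 0.11, standard error 0.19, adjusted p = 0.826), and Tgm3 had a difference of -0.26 (standard error 0.33, adjusted p = 0.739) and Tgm5 of -0.10.

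**Figure D2:**
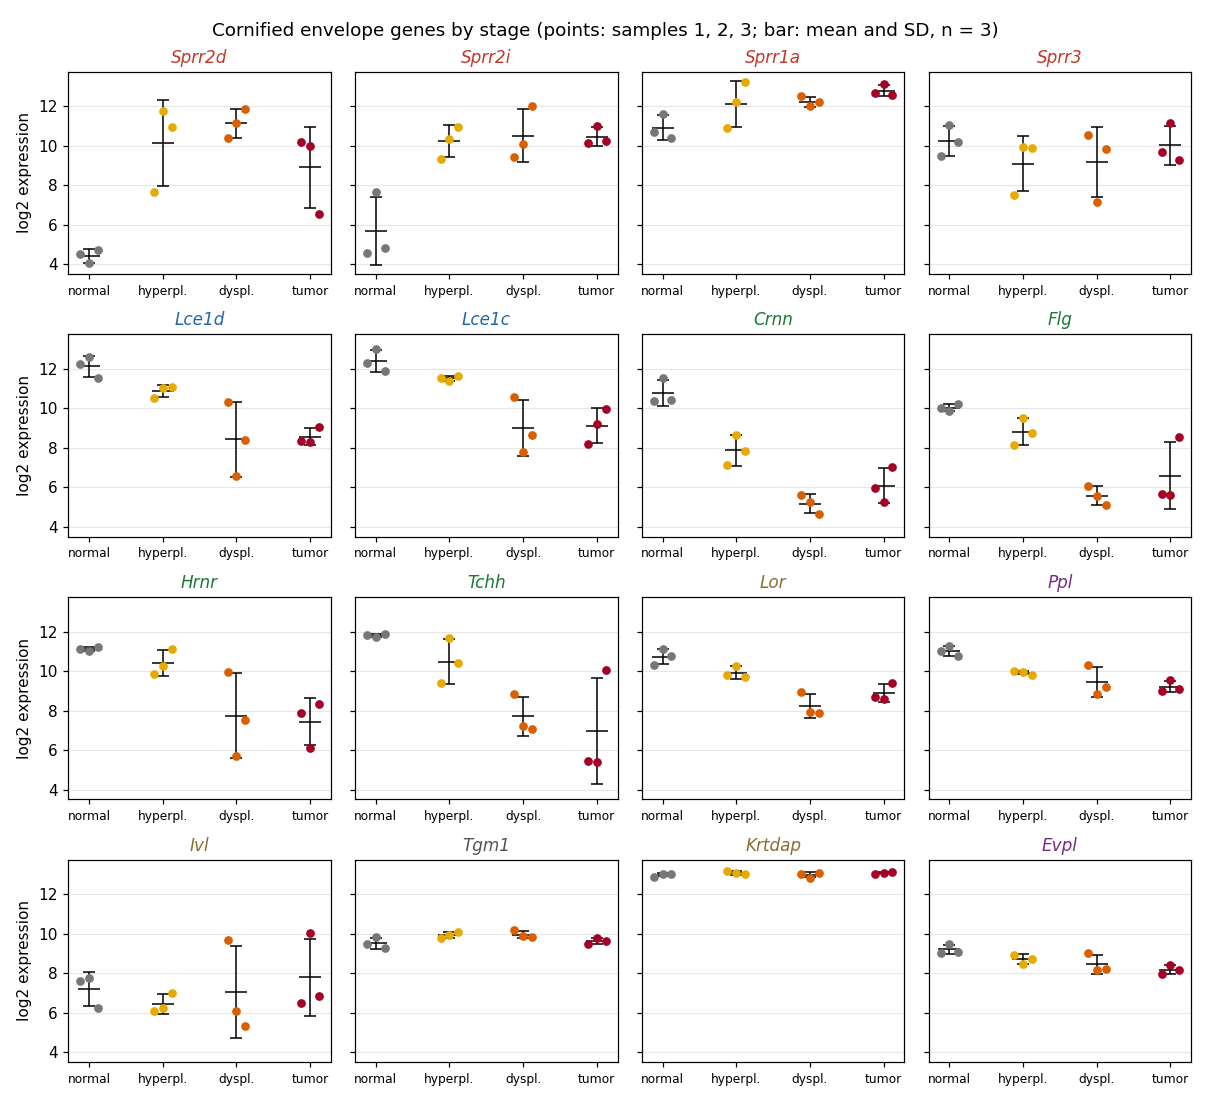
Log2 expression of 16 genes in each of the 12 samples, by stage from normal to tumor (n = 3 each). Points are samples, and the bar shows the mean and SD. Sprr2d and Sprr2i lie higher in all 3 lesion groups than in normal mucosa, Crnn, Flg, Hrnr, Tchh and the Lce genes lie lower in dysplasia and tumors, and Krtdap and Tgm1 stay level.

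Crnn was the member whose call held most widely. It was called in tumors in 23 of 25 alternative fits, with adjusted p from 0.000495 to 0.162 over all of them. The count of members called lower, 17, became 1 without tumor 1 and 2 without tumor 2, normal 1 or normal 2. It was 9 without normal 3, 11 without tumor 3 and 28 without dysplasia 1. The share of all genes called lower was 1.23% in the main fit. That share became 0.417% without tumor 1, 0.474% without tumor 2, 0.396% without normal 1 and 0.368% without normal 2. Without normal 3 it was 0.931%, without tumor 3 0.686% and without dysplasia 1 1.78%. Neither Sprr2 gene was called higher without normal 1 or without tumor 2. Of all genes, 0.221% were called higher without normal 1 and 0.266% without tumor 2, against 0.744% in the main fit. Sprr2i alone was called without normal 2, normal 3, tumor 1, dysplasia 2 or dysplasia 3. RIN was higher in every tumor sample than in every normal sample, and with RIN as a covariate Crnn alone was called (-4.53, adjusted p = 0.0459), while the direction was kept for 51 of 55 members. The mean of 16 skeletal muscle markers was 6.88, 5.76 and 5.52 in tumors and 9.39, 6.07 and 8.35 in normal mucosa, with 14 of 16 lower by more than 1 and none called. With that mean as a covariate Crnn was again the one member called (-5.28, adjusted p = 0.00422). The part of RNA quality and of muscle RNA in the other differences was not tested.

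Samples were prepared on 8 days, and 2 of these days held more than 1 group. Tumor 1 shared a day with normal 2, and both samples are also part of the whole comparison. Their difference, 1 sample against 1 and without a test, was 2.43 for Sprr2i, 6.14 for Sprr2d and -5.59 for Crnn, and the median was 2.08 over the Sprr2 genes, -3.34 over the Lce genes and -3.14 over the fused-type genes. Tumors 2 and 3 shared a day with dysplasia 1. Their mean minus dysplasia 1 had a median of -1.94 over the Lce genes and -0.76 over the fused-type genes. For all tumor minus all dysplasia samples the medians were -0.18 and -0.02. Dysplasia 1 is the sample set apart above, with median gaps to the mean of dysplasia 2 and 3 of 2.85 (Lce) and 1.43 (fused-type). The day and this sample therefore cannot be told apart. With day as a fixed block, the tumor minus normal difference rests on tumor 1 and normal 2 alone. It is then the same difference of 1 sample against 1, such as -3.31 for Lce1m. With day as a random block (correlation 0.11), 22 members were called in tumor, among them all 19, and 8 of the 9 calls in dysplasia were kept. The share of all genes called in that fit is not given. The random-block fit also compares groups across days, so that the part of preparation day in the 19 calls was not tested. Of the other cell types, the mean of 10 fibroblast markers was 6.83 to 7.33 in tumors and 7.65 to 7.94 in normal mucosa. That of 8 endothelial markers was 6.91 to 7.27 in tumors and 6.03 to 6.61 in normal mucosa. That of 8 salivary gland markers was 5.25 to 5.46 in tumors and 5.40 to 5.69 in normal mucosa. In tumors 1 fibroblast marker was called lower, 1 endothelial marker higher and 1 salivary gland marker lower. In dysplasia 1 fibroblast marker was called lower and 1 leukocyte marker higher. The fibroblast marker Dcn, which fell most among the 10, had group means of 11.45 in normal mucosa, 8.16 in dysplasia and 8.39 in tumors. Over the 10 fibroblast markers the median tumor minus normal difference was -0.55, and 2 were lower by more than 1. Col1a1 and Postn had higher means in tumors (7.73 and 7.78) than in normal mucosa (7.51 and 7.44). The part of these cell types in the envelope differences was not tested.

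Dysplasia differed from normal mucosa in the same families. Limma called 2 members higher and 7 lower, where 0.261% and 0.503% of all genes were. The 2 higher were again Sprr2d and Sprr2i. Sprr2d was at 10.41, 11.15 and 11.87 in dysplasia (difference 6.71, standard error 1.03, adjusted p = 0.0141), and Sprr2i was at 9.45, 10.08 and 12.01 (difference 4.81, standard error 0.80, adjusted p = 0.0185). The 7 lower were Crnn, Flg, Lce1d, Lce1a2, Lce1c, Lor and Ppl. Crnn was at 5.62, 5.28 and 4.65 in dysplasia (difference -5.60, standard error 0.50, adjusted p = 0.000491). Flg was at 6.09, 5.58 and 5.12 (difference -4.45, standard error 0.64, adjusted p = 0.0113). In both, every dysplasia sample was below every normal and every hyperplasia sample. Lor was at 8.93, 7.95 and 7.85 in dysplasia (difference -2.49, standard error 0.33, adjusted p = 0.00983). Lce1d was at 10.34, 6.56 and 8.42 (difference -3.69, adjusted p = 0.0317), so dysplasia 1 lay closest to the normal samples. Lce1a2, Lce1c and Ppl had differences of -3.59, -3.40 and -1.57 (adjusted p = 0.022, 0.0263 and 0.0446). The median difference was 3.06 over the Sprr2 genes, -2.25 over the Lce genes and -3.37 over the fused-type genes, against -0.02 over all genes. By size, 10 members were higher and 30 lower by more than 1, against 1.84% and 2.39% of all genes, and 9 higher and 24 lower had no overlap, against 7.28% and 8.7%. At an unadjusted p under 0.05, 10 were higher and 29 lower, against 5.48% and 6.76%. The comparisons of dysplasia and of tumor with normal mucosa share their normal samples.

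The counts depended on single samples. Without dysplasia 1, 26 members were called lower in dysplasia than in normal mucosa in place of 7, where the share of all genes called lower was 0.809% in place of 0.503%. In the same fit 28 members were called lower in tumor in place of 17, where that share was 1.78% in place of 1.23%, and the counts called higher stayed at 2 and 2. Without normal 1 or dysplasia 2, the members called lower in dysplasia were Crnn and Lor. Without normal 2 or dysplasia 3 they were Crnn, Flg and Lor. The share of all genes called lower was 0.0449% without normal 1 and 0.0817% without dysplasia 2. It was 0.168% without normal 2 and 0.192% without dysplasia 3. Neither Sprr2d nor Sprr2i was called in dysplasia without normal 1, dysplasia 2 or dysplasia 3. With RIN as a covariate Crnn, Flg, Lor and Lce1a2 were called lower and Sprr2d, Sprr2f and Sprr2i higher, and with the muscle marker mean Crnn and Lor were called lower and none higher.

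In hyperplasia the Sprr2 genes had the larger differences, and no member was called. Of all genes 0.0204% were called higher and 0.0449% lower, and at an unadjusted p under 0.05, 9 members were higher and 5 lower, against 4.07% and 5.69% of all genes. Differences over 1 were found in 10 members upward and 15 downward, against 1.12% and 1.65%, and 6 higher and 21 lower had no overlap, against 7.08% and 8.96%. Sprr2d was at 7.67, 11.76 and 10.97 in hyperplasia, against 4.52, 4.05 and 4.73 in normal mucosa, and although the groups were separate the difference of 5.70 was not called (adjusted p = 0.0814). Sprr2i was at 9.35, 10.37 and 10.95 (difference 4.52, adjusted p = 0.0718). Sprr2h, the nearest of the rest, had a difference of 2.77 (adjusted p = 0.139). Crnn was at 7.12, 8.67 and 7.86, below every normal sample (difference -2.90, adjusted p = 0.0677). Without hyperplasia 1, Sprr2d (6.93, adjusted p = 0.026) and Sprr2e (4.44, adjusted p = 0.026) were called higher. Without tumor 3, Sprr2d (adjusted p = 0.0343) was called higher and Crnn (adjusted p = 0.0475) lower. Sprr2i was called without normal 2 (5.51, adjusted p = 0.0188) and Crnn without hyperplasia 2 (-3.30, adjusted p = 0.024). The median difference was 2.71 over the Sprr2 genes, -0.96 over the Lce genes and -0.69 over the fused-type genes, against -0.04 over all genes.

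**Figure D3:**
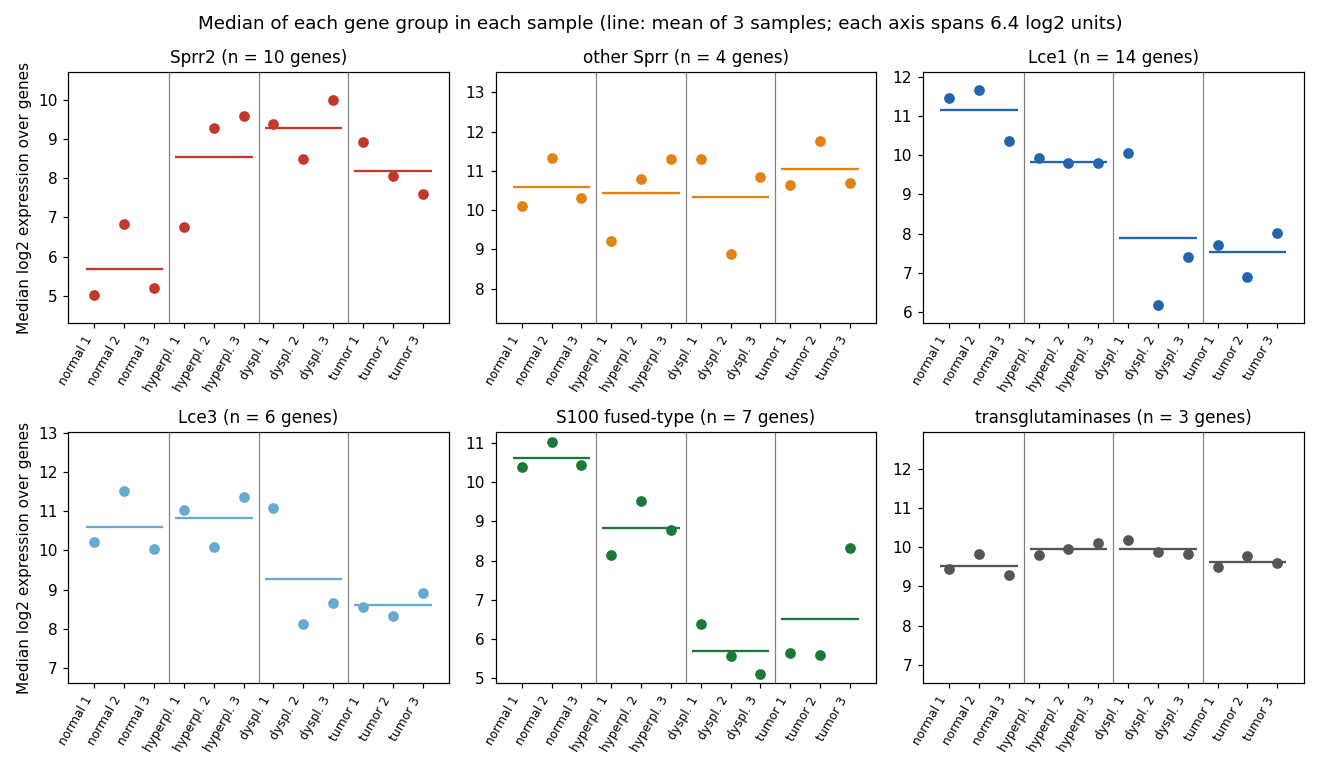
Median log2 expression over the genes of 6 groups (panels) in each of the 12 samples, in the order normal, hyperplasia, dysplasia, tumor. Lines are the mean of 3 samples, and each vertical axis spans the same number of log2 units. The Sprr2 median is higher from hyperplasia 2 on, and the Lce1 and fused-type medians of every lesion sample lie below every normal sample. The Lce1 medians of dysplasia 2 and 3 and of the tumors also lie below every hyperplasia sample. The transglutaminase median is level.

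From stage to stage, the median difference over the Lce genes was -0.96 for hyperplasia minus normal, -1.69 for dysplasia minus hyperplasia and -0.18 for tumor minus dysplasia. Over the fused-type genes it was -0.69, -2.68 and -0.02 in the same order, and over the Sprr2 genes 2.71, 0.60 and -0.82. Without dysplasia 1 the medians of dysplasia minus hyperplasia were -2.48 over the Lce genes and -2.91 over the fused-type genes, and those of tumor minus dysplasia turned positive, 0.37 and 0.72. Whether these steps differ in size was not tested. Between dysplasia and hyperplasia limma called no gene (0% higher and 0% lower of all genes) and so no member, and at an unadjusted p under 0.05 no member was higher and 23 were lower, against 2.55% and 2% of all genes. Differences over 1 were found in 3 members upward and 27 downward, against 0.833% and 0.911%, and 10 lower and none higher had no overlap, against 3.71% and 5.07%. Sample medians over the Lce genes were 11.24, 11.52 and 10.09 in normal mucosa, 10.08, 9.98 and 10.18 in hyperplasia, 10.29, 6.42 and 7.53 in dysplasia and 8.18, 7.24 and 8.22 in tumors. Flg had a difference of -3.23 (standard error 0.64, adjusted p = 0.709) between dysplasia and hyperplasia, Crnn -2.70 (standard error 0.50, adjusted p = 0.697) and Lor -1.68 (standard error 0.33, adjusted p = 0.7). In these 3 genes every dysplasia sample was below every hyperplasia sample. Without tumor 3, Flg was called (-3.23, adjusted p = 0.0205). Without dysplasia 1, limma called 5 members lower than in hyperplasia, where 0.0368% of all genes were: Lce1d (-3.40), Lce1c (-3.32), Lce1h (-3.27), Cdsn (-2.03) and Lce3c (-1.92), with adjusted p from 0.0392 to 0.0439. Between tumor and dysplasia no member was called, where 0% of all genes were called higher and 0.00409% lower, and at an unadjusted p under 0.05 none was higher and 2 were lower, against 2.81% and 3.53%. In size, 1 member was higher and 6 lower by more than 1, against 0.703% and 0.997%, and 1 higher and 3 lower had no overlap, against 4.94% and 7.26%. The median difference was -0.19 over the members (0.30 without dysplasia 1), and the largest was -2.23 for Sprr2d (adjusted p = 0.782).

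**Figure D4:**
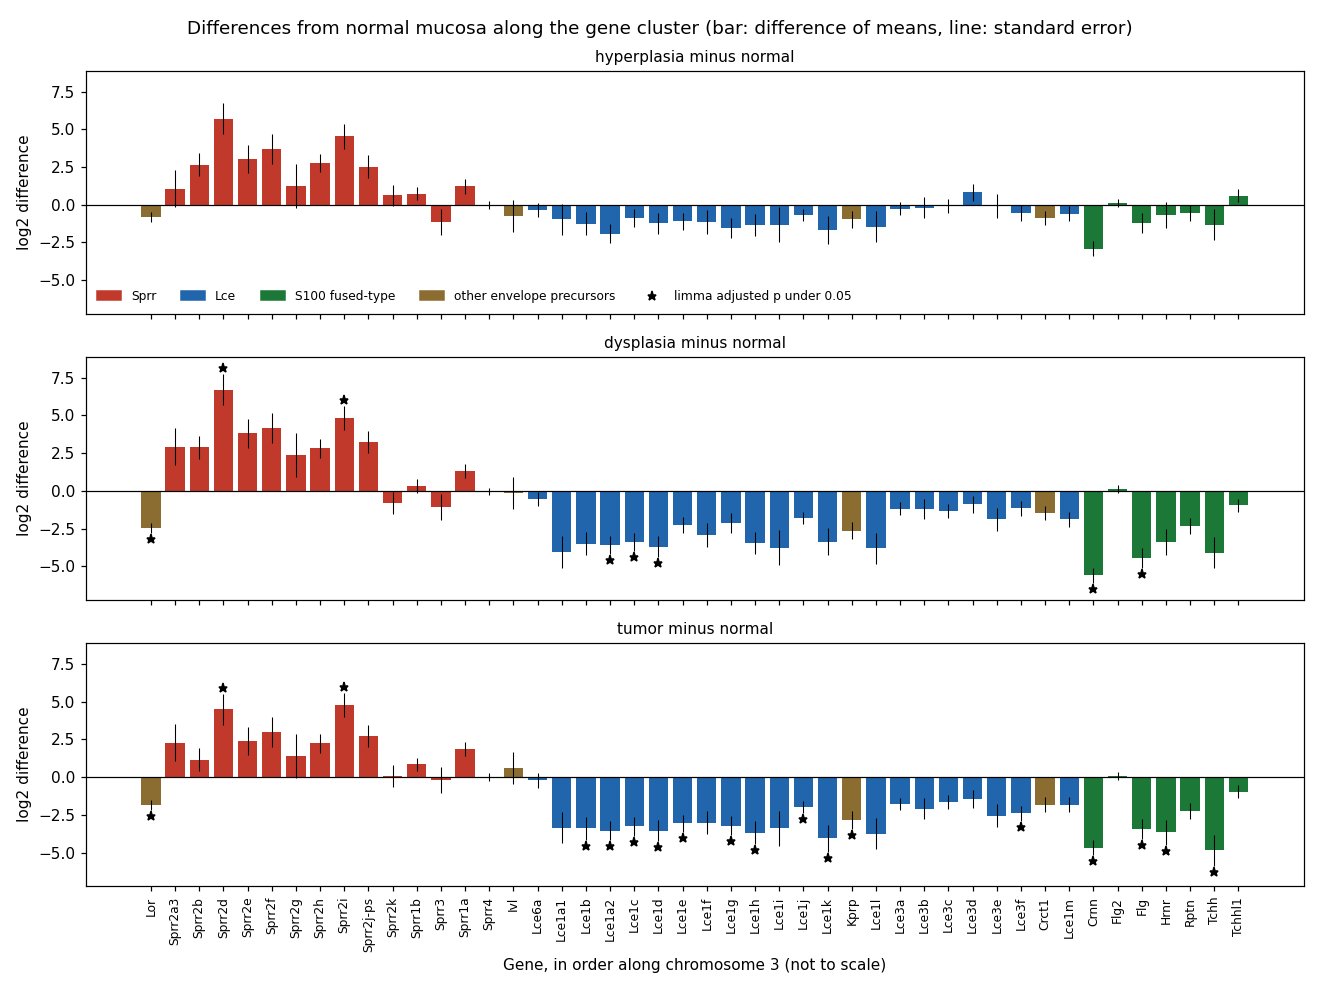
Difference in log2 expression from normal mucosa for 46 genes in the order in which they lie along chromosome 3 (spacing not to scale). Panels show hyperplasia, dysplasia and tumor minus normal, bars are differences with their standard errors and stars mark limma calls. Most Sprr2 bars are above 0 and most Lce and fused-type bars, and that of Lor, are below 0, while Sprr2k, Sprr4, Ivl, Lce6a and Flg2 lie within 1 log2 unit of 0 in every panel.

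Along the chromosome the families lie in blocks. From one end of the cluster come Lor, the Sprr2 genes from Sprr2a3 to Sprr2k, Sprr1b, Sprr3, Sprr1a, Sprr4 and Ivl, then Lce6a, the Lce1 genes from Lce1a1 to Lce1k, Kprp, Lce1l, the Lce3 genes, Crct1 and Lce1m, and the fused-type genes from Crnn to Tchhl1 at the other end. Between the Sprr2 genes, with positive tumor differences, and the Lce1 genes, with negative ones, lie Sprr1b, Sprr3, Sprr1a, Sprr4, Ivl and Lce6a. None of these was called, but of the 10 Sprr2 genes only 2 were called. Sprr1a had a difference of 1.87 without overlap, and Sprr2k, within the Sprr2 block, had 0.07. Calls therefore do not mark where the blocks end. Lor, at the Sprr2 end, was called lower in tumors and in dysplasia. Flg2 lies between Crnn and Flg, and its difference was 0.04 while those of its neighbours were -4.70 and -3.44. Flg2 was low in all 12 samples, between 4.14 and 5.17, where the array medians were 6.16 to 6.35. This leaves it little range for a fall.

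Partners of the envelope were counted from lists of known genes. Of 18 measured regulators of cornification 1 was called higher in tumors, Fosl1, which encodes a member of the AP-1 family. Fosl1 was at 7.82, 8.88 and 8.395 in tumors, against 7.19, 5.63 and 5.85 in normal mucosa (difference 2.14, adjusted p = 0.0208), and the groups did not overlap. Of 16 processing enzymes and inhibitors 1 was higher, Cstb, a cysteine protease inhibitor gene (difference 1.06, adjusted p = 0.0202), and 2 were lower. Those were Padi1, which encodes a peptidylarginine deiminase that converts arginine in filaggrin (difference -1.30, adjusted p = 0.0203), and Serpinb3a, a serpin gene (difference -2.52, adjusted p = 0.0174). Of 11 enzymes of the lipid envelope 1 was lower, Aloxe3, a lipoxygenase gene (difference -1.996, adjusted p = 0.0298), and of 12 desmosome genes 1 was higher, Dsg3, which encodes desmoglein 3 (difference 1.29, adjusted p = 0.0388). The medians of these 4 lists, -0.30 to 0.00, lay near the -0.05 of all genes. Within these 4 lists Cstb was the one gene called in dysplasia (difference 1.11, adjusted p = 0.0256). None of their genes was called in hyperplasia or between the lesion groups. Of 11 keratins listed as suprabasal in the tongue, 2 were called higher in tumors, Krt6b and Krt17, and 4 lower, Krt4, Krt36, Krt76 and Krt84. In dysplasia 2 of the 11 were called higher and 1 lower. The mean of the 11 keratins was 9.43, 9.64 and 11.02 in tumors and 11.69, 11.76 and 11.34 in normal mucosa. The mean of 8 basal keratinocyte markers ranged from 9.81 to 10.72 over all samples. Single basal markers moved in both directions, and 1 was called higher and 0 lower in tumors. Itga6 had a group mean of 10.77 in tumors and 9.10 in normal mucosa, and Krt15 had 9.59 and 11.91. The part of these keratin and basal marker shifts in the envelope genes was not tested.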

How the data were processed

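RNA from 12 laser-microdissected tongue epithelium samples was amplified and measured on Affymetrix mouse arrays, 1 per mouse. The deposited values are log2 expression per probe set, which the authors made by quantile normalization and RMA; software versions and the build behind the probe sets are not given in the sources used here. Of 24479 probe sets, 23281 had a symbol in the platform table and 1198 had none. Where probe sets shared a symbol, the one of highest mean over the samples was kept, which gave 24477 genes. Limma 3.58.1 in R 4.3.3 was fitted to all of them with 4 group means (8 residual degrees of freedom), after the step was tested on simulated data. A gene was called where its Benjamini-Hochberg value over all genes of the contrast was under 0.05. The 3 arrays per group limit the precision.

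The members, marker and partner lists and tests were chosen with earlier results of these data known. Named with values were members called in any contrast (the 15 of largest tumor difference), the largest rise and fall in each role, and a fixed list of 13 genes; other genes named were chosen after their values were seen. RIN and preparation day came from the supplement of the study. Motifs were chosen after the sequences were seen. Some listed genes are not reported here. Alternatives were a second normalization, a filter on dim probe sets, an intensity trend, the 2 groups alone, the methods' t-test, RIN, muscle marker, day and replicate terms, and left-out samples; leaving out normal 1 and dysplasia 1 together was chosen after seeing the data.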

Additional observations from a re-analysis of the deposited data

How the results depend on the processing

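Counts are members called higher and lower, 2 and 17 in tumor and 2 and 7 in dysplasia against normal mucosa. With RIN as a covariate they were 0 and 1 in tumor and 4 lower in dysplasia, and the median Lce difference in tumor was -2.26. With day as a fixed block the comparisons rest on tumor 1 against normal 2 and on tumors 2 and 3 against dysplasia 1, so that no counts are given. The hyperplasia contrasts could not be fitted. With the muscle marker mean the counts were 0 and 1 in tumor, 0 and 2 in dysplasia, and 1 higher in hyperplasia (Sprr2i). The methods' t-test with Benjamini-Hochberg adjustment called 0 and 0 in tumor and 0 and 0 in dysplasia. Unadjusted, it gave 7 and 32 in tumor, 9 and 12 in dysplasia, 4 and 14 in hyperplasia, and 5 lower in dysplasia against hyperplasia. A difference over 1 with no test gave 10 and 31, 10 and 30, and 10 and 15 against normal, 3 and 27 in dysplasia against hyperplasia, and 1 and 6 in tumor against dysplasia. Without the 30% dimmest probe sets, or with an intensity trend, 11 were lower in dysplasia. Without the 4 samples of lowest RIN, which leaves normal 2 as the one normal sample, assumed to vary like the other groups, 0 were higher in tumor, 0 higher and 16 lower in dysplasia, and the median Sprr difference in tumor was 1.23. Without normal 1 and dysplasia 1 together, chosen after seeing the data, 1 was higher in tumor, and 0 higher and 18 lower in dysplasia. Leaving out single samples gave 0 to 4 higher and 1 to 28 lower in tumor, and 0 to 4 and 2 to 26 in dysplasia. The counts were 0 to 2 and 0 to 1 in hyperplasia, and 0 to 5 lower in dysplasia against hyperplasia. In those fits 0.204% to 1.16% of all genes were called higher and 0.368% to 1.78% lower in tumor. The shares were 0.0245% to 0.306% and 0.0449% to 0.809% in dysplasia, and 0.00817% to 0.0695% and 0.0123% to 0.229% in hyperplasia. In dysplasia against hyperplasia 0% to 0.0368% were lower. Where not stated otherwise the cause was not tested. The replicate numbers do not pair the mice: deviations of same-numbered samples correlated at -0.15 to 0.17 (18 pairs) and those of other pairs at -0.13 to 0.11 (36 pairs). With a replicate block 17 members were called in tumor, 15 of them among the 19, and 4 were lower in dysplasia. The alternatives gave 970 values for 36 single-member results, of which 26 were called in the main fit. None of those 26 changed its direction. Only values of those 26 could lose a call, and 247 did, while 13 values of the others gained a call. The 970 include the fit with day as a fixed block, the unadjusted t-test and the size rule without a test. Members near the array background, such as Lce3f in tumors and Sprr2d in normal mucosa, have uncertain fold changes.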
